A study of Caenorhabditis elegans with 24 samples.

Results

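The comparison described here is that of poly(A)-selected RNA from whole L4 animals of 2 Caenorhabditis elegans genotypes, wild type (the N2 stock named N2-CGC B) and the deletion strain tdp-1(ok803), both raised at 20°C. The libraries were chosen by their labels, which name 3 wild-type and 3 tdp-1(ok803) poly(A) libraries, 6 of the 24 samples in the series. Of the 45642 genes listed, 24805 stood at 0 in all 6 libraries, and 15807 reached a value of 10 or more in 3 or more libraries and were compared. The ok803 strain had been outcrossed to the N2 stock, and neither genotype carried a transgene or received a drug in these libraries. Libraries with the same replicate number were compared as pairs, so a pair is 1 tdp-1(ok803) library set against the wild-type library of that number. All differences below are log2(normalized count + 1) in the tdp-1(ok803) library minus that in wild type, a scale that understates the change of low genes.

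TDP-1 is the worm ortholog of TDP-43, a nuclear RNA-binding protein of the hnRNP family that acts in splicing and RNA stability and is known from its aggregates in human motor neuron disease. L4 is the last larval stage of the worm. Towards its end the hypodermis and seam cells secrete the adult cuticle before the final molt, while the hermaphrodite gonad makes sperm and then turns to oocytes, and the intestine starts to make yolk for them around adulthood. Many transcripts of cuticle, sperm, oocyte and yolk are therefore strongly dependent on the exact age of an animal. In whole animals, fewer cells of a type and less RNA per cell cannot be told apart.

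The libraries held 65546397 to 107297985 reads, recovered from the step size of the normalized counts. On the first principal component of the log2 values, replicate 1 lay at -79.7 (wild type) and -89.7 (tdp-1(ok803)), and the other libraries between 27.5 and 64.2. Genes of ribosomal RNA took 3.93% and 3.36% of normalized counts in replicate 1 of wild type and of tdp-1(ok803), and 0.096% to 0.268% in the other libraries. The gene tdp-1 itself had normalized counts of 2156, 3501 and 4322 in wild-type animals against 915, 3542 and 3478 in tdp-1(ok803). It was thus lower in pairs 1 and 3 and level in pair 2, with groups that overlapped (log2 difference -0.51, standard error, or SE, 0.26, adjusted p = 0.52 by limma after Benjamini-Hochberg adjustment). The table gives totals per gene, so the deleted stretch itself could not be looked at, and every direction below rests on the labels.

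With the replicate number as a block, limma called 1 gene higher and 0 lower at an adjusted p under 0.05, which is 0.00633% and 0% of the genes tested, while 1699 genes (10.7%) had an unadjusted p under 0.05. On the recovered reads edgeR called 1 gene higher and 3 lower, or 0.00633% and 0.019%. DESeq2 called 143 higher and 136 lower, or 0.981% and 0.933% of the 14581 genes to which it gave an adjusted p. A total of 2407 genes (15.2%) were higher in all 3 pairs and 2877 (18.2%) were lower in all 3 pairs, and these genes are a description, since an exact sign test of 3 pairs cannot give a two-sided p below 0.25. At least a 2-fold difference in each pair was met by 43 genes on the higher side (0.272%) and 78 on the lower side (0.493%). The pairs differed from each other: across genes, the differences of pairs 2 and 3 correlated at 0.36, those of pairs 1 and 2 at 0.11 and those of pairs 1 and 3 at -0.01, where genes are not independent replicates. In particular, 2808 genes (17.8%) were lower in pairs 2 and 3 and higher in pair 1, and 2689 genes (17%) showed the opposite pattern.

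Leaving out replicate 1 changed the count of calls most. Replicates 2 and 3 alone, compared as 2 against 2 libraries without the block, gave 330 genes higher (2.09%) and 348 lower (2.2%) with limma at an adjusted p under 0.05. Of these, 203 (1.28% of genes tested) were also higher in pair 1 and 160 (1.01%) also lower. The comparison of replicates 2 and 3 without the block was added after the values were seen. It leaves out pair 1, whose differences correlated least with those of the other pairs. For the gene groups below, the count called in this comparison is given as the count over replicates 2 and 3. It is to be read beside the 2.09% of all genes called higher and the 2.2% called lower. With the block kept, 1171 genes (7.41%) were called higher and 1378 (8.72%) lower over those replicates, but each gene then had 1 residual degree of freedom and the spread was taken almost wholly from the other genes (303 prior degrees of freedom).

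**Figure D1:**
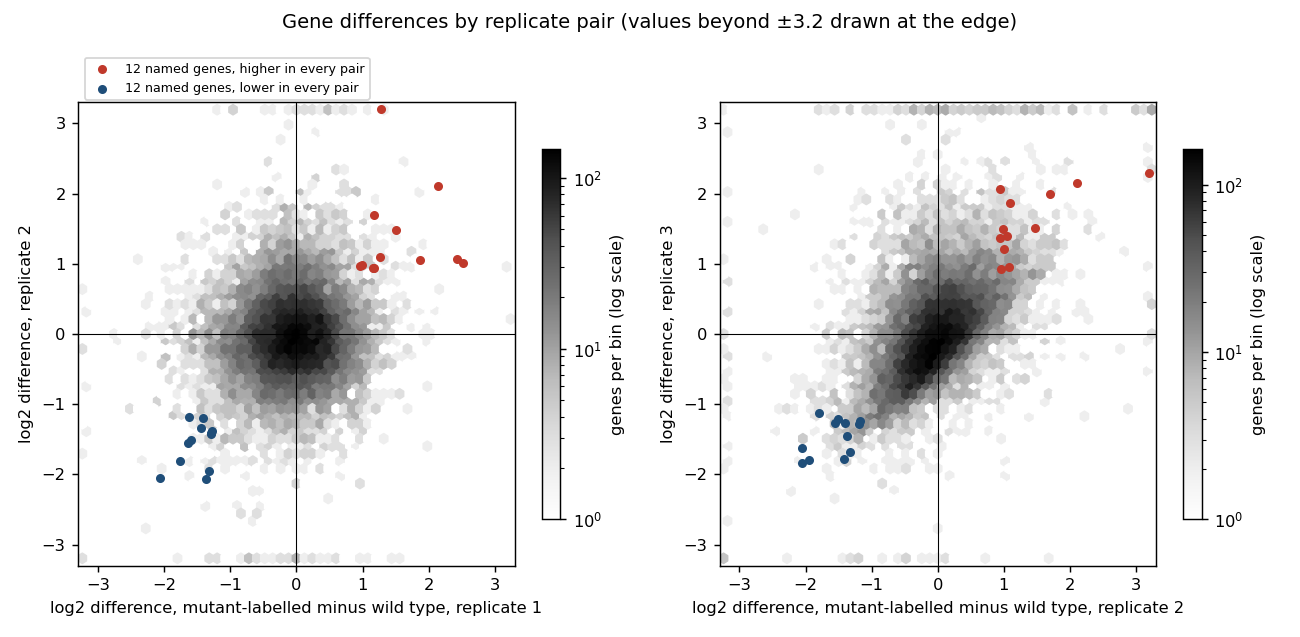
Log2 differences of the 15807 genes tested, tdp-1(ok803)-labelled minus wild type, for replicate 2 against replicate 1 (left) and replicate 3 against replicate 2 (right). Grey shading counts genes per bin on a log scale, and red and blue points are the 12 named genes higher and the 12 lower in every pair. The cloud is round on the left, where the correlation is 0.11, and drawn out along the diagonal on the right, where it is 0.36.

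The gene that passed the threshold was col-54, which encodes a cuticle collagen. Its normalized counts were 777, 920 and 890 in the wild-type libraries against 3441, 3981 and 3959 in the tdp-1(ok803) libraries. The tdp-1(ok803) libraries lay above every wild-type library and replicate 1 did not stand apart for this gene. Col-54 rose 4.4-fold (log2 difference 2.14, SE 0.18, limma adjusted p = 0.041), and its adjusted p ran from 2.62e-21 to 0.231 over the alternative settings. The call was lost without the replicate block (0.231), without replicate 3 (0.183) and with no filter on low values (0.078).

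On the higher side, more genes were named, making 12 with col-54, as those above the median gene in level with the largest smallest difference over the pairs. None of those added to col-54 passed the threshold in limma. The gene F46F2.3 had normalized counts of 2696, 1416 and 1540 in wild-type animals against 7685, 3936 and 4392 in tdp-1(ok803), with no overlap and nearly the same difference in each pair (1.51, 1.47 and 1.51). The glutathione S-transferase gene gst-24 had 212, 266 and 446 against 515, 2602 and 2196, a difference of 1.27 in pair 1 and of 3.29 in pair 2. The groups did not overlap for gst-24, whose mean difference of 2.29 was the largest of these genes. K10H10.2, now named cysl-2 and encoding a protein of the cysteine synthase family, had 3847, 8190 and 9875 in the wild-type libraries against 20669, 17254 and 19222 in the tdp-1(ok803) libraries. The lipase-related gene lips-6 had 899, 4218 and 3650 against 5156, 8468 and 8482. For both genes the groups did not overlap and pair 1 showed the largest difference, 2.43 for K10H10.2 and 2.52 for lips-6. The hedgehog-related gene grd-13, the F-box gene fbxa-72, the collagen gene col-147, the body shape gene dpy-6, which encodes a mucin-like protein, and F18E9.3, K01C8.1 (srdh-1) and T19B10.5 had mean differences between 0.95 for T19B10.5 and 1.62 for grd-13.

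On the lower side the gene with the largest smallest difference was dod-3, a gene known to act downstream of the FOXO factor DAF-16. Its normalized counts were 18813, 2156 and 1408 in the wild-type libraries against 4487, 519 and 455 in the tdp-1(ok803) libraries. Replicate 1 was the highest library in each genotype, so the groups overlapped although every pair differed by at least 1.63 (mean -1.92, SE 0.20, limma adjusted p = 0.051). The yolk protein genes vit-2 and vit-6, the major sperm protein gene msp-81, and the collagen genes col-20, col-129, col-140 and col-179 were among the 12, with mean differences from -1.32 for col-20 to -1.76 for vit-2. F15E11.12 (pud-4), of a gene family first found by its high protein level in daf-2 mutants, had 9505, 21493 and 22551 in the wild-type libraries against 3477, 8529 and 7015 in the tdp-1(ok803) libraries. Its groups did not overlap and the pairs differed by -1.45, -1.33 and -1.68. The other named genes were T12D8.5, F47H4.2 and D1054.11 (ule-3, a protein of the uterine lumen), at -1.44, -1.30 and -1.56.

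**Figure D2:**
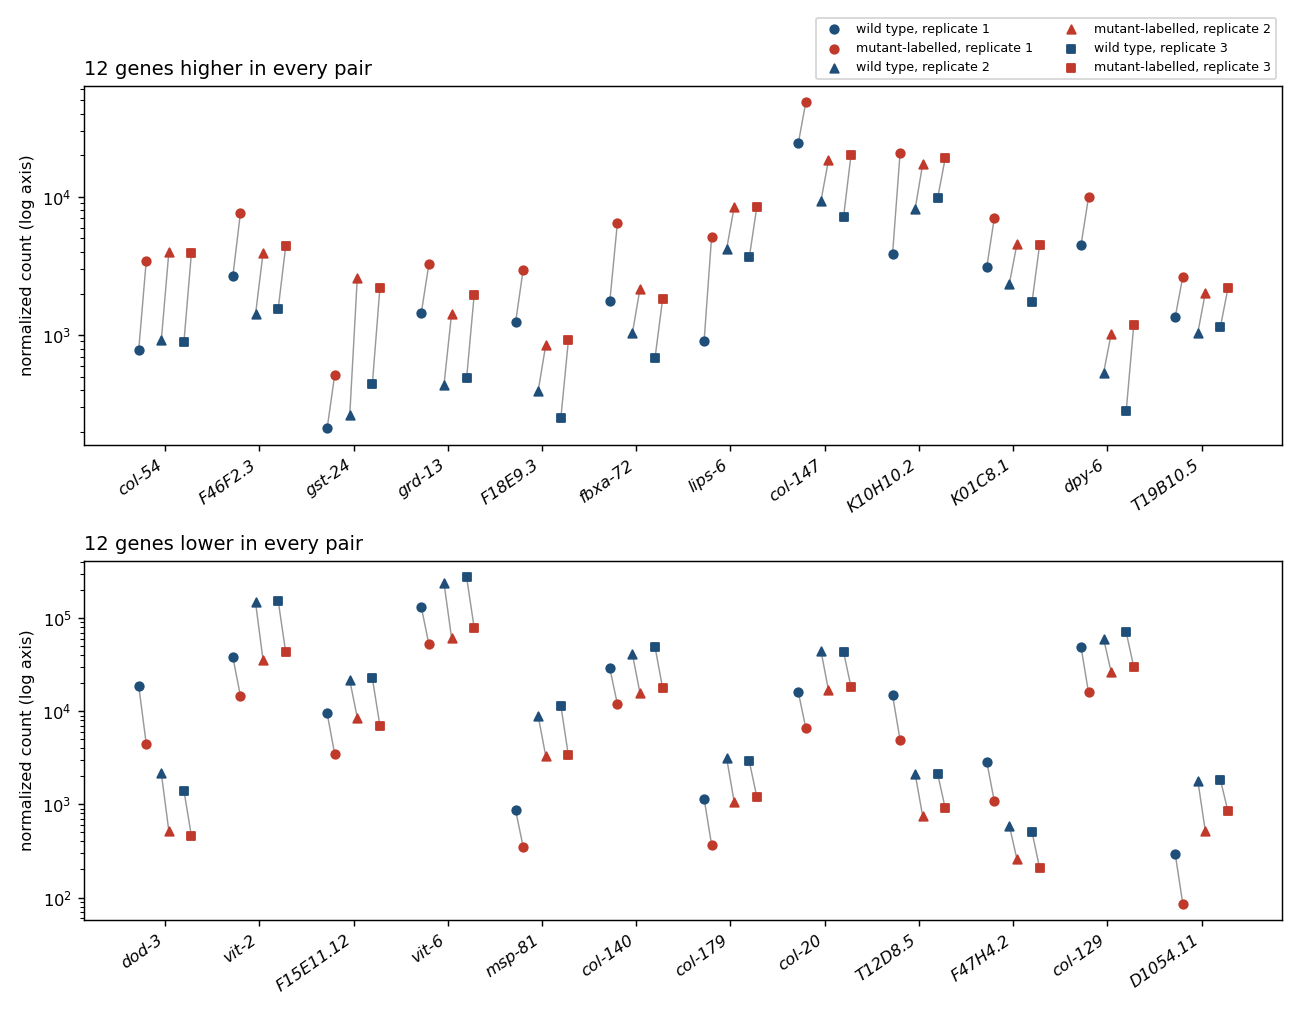
Normalized counts on a log axis in each library for the 12 genes named as higher (top) and the 12 named as lower (bottom) in every pair, with a grey line joining the libraries of a pair. Blue is wild type, red is tdp-1(ok803)-labelled, and circles, triangles and squares are replicates 1, 2 and 3. For col-54 all 3 red points lie between 3441 and 3981, above the blue points at 777 to 920, whereas for dod-3 replicate 1 lies far above the others in both genotypes.

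Genes of the hypodermis and of cuticle renewal were higher more often than genes at large. Of 18 hypodermis and seam markers, 10 were higher and 0 lower in all 3 pairs, or 55.6% against 15.2% of all genes, and the median difference was 0.33 against -0.02 over all genes. The seam-expressed hedgehog-related genes led this group. For wrt-10 the normalized counts were 9490, 3161 and 3522 in the wild-type libraries against 15778, 10698 and 9903 in the tdp-1(ok803) libraries, without overlap. For grd-10 they were 2378, 610 and 385 against 3705, 2044 and 1927, which overlapped, with wild-type replicate 1 above both of those at 2044 and 1927. Over replicates 2 and 3, 5 of the 18 markers were called higher and 0 lower, and wrt-10, grd-10 and dpy-7 were among the 5. Wrt-10 and grd-10 are counted again in the hedgehog-related family, and dpy-7 among the shape collagens below. These groups are therefore not separate sets of genes. The wider family of 76 hedgehog-related and patched-related genes, many of which encode secreted proteins of the epidermis, gave 17 higher and 13 lower in all 3 pairs, with 12 called higher and 2 lower over replicates 2 and 3. The 22 molting genes gave 10 higher and 1 lower in all 3 pairs (45.5% and 4.55%), with 7 called higher and 0 lower over replicates 2 and 3. Among them were fbn-1, which encodes a fibrillin-like matrix protein, at 9973, 1823 and 1451 against 16990, 3623 and 5066, and let-653, a gene of the apical matrix, at 3326, 748 and 645 against 5461, 1716 and 1929. In these genes too wild-type replicate 1 was above some tdp-1(ok803) libraries.

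Collagens known from body shape mutants showed a split. Of the 15, 5 were higher and 2 lower in all 3 pairs, and 6 were called higher over replicates 2 and 3. Dpy-7, a collagen of the annular furrows of the cuticle, had normalized counts of 12431, 3100 and 3601 in wild-type animals against 17613, 10100 and 9421 in tdp-1(ok803). Dpy-2, of the same furrow group, had 11503, 3127 and 3858 against 17190, 9787 and 9608, and dpy-3 had 11416, 1500 and 2020 against 16258, 3153 and 3451. The abundant collagens dpy-5 and dpy-13 were the members lower in all 3 pairs, at mean differences of -0.22 and -0.33, with overlapping groups and almost no difference in pair 1 for dpy-13 or in pair 2 for dpy-5. Of 30 cuticlin genes, which encode matrix proteins of the cuticle, 10 were higher and 4 lower in all 3 pairs, and 3 were called higher and 0 lower over replicates 2 and 3. Cutl-10 had 423, 95.3 and 150 against 972, 351 and 375, cutl-9 had 240, 65.3 and 33.5 against 483, 174 and 170, and cutl-16 had a mean difference of 1.14. The groups overlapped for each of them, with wild-type replicate 1 high. Replicate 1 also differed for these groups: in wild type, replicate 1 exceeded the mean of replicates 2 and 3 by a median of 0.44 for the hypodermis markers, 0.93 for the molting genes, 0.79 for the shape collagens and 0.97 for the cuticlins, against 0.04 over all genes. The part of this shift in the differences between genotypes was not tested.

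The large col family was mixed, with 22 of 125 tested members higher (17.6%) and 43 lower (34.4%) in all 3 pairs. Over replicates 2 and 3, 13 were called higher and 14 lower, and DESeq2 over all pairs called 8 higher and 14 lower. Besides col-54, the higher members included col-90, at 13221, 10616 and 10533 against 28024, 19907 and 20389, without overlap. The lower members included col-140, at 28920, 40773 and 48762 against 11934, 15684 and 17808, and col-129, at 49352, 59952 and 70460 against 15918, 26523 and 29918. Neither gene's groups overlapped. Col-20 had 16095, 44741 and 43616 against 6568, 16891 and 18081, and only wild-type replicate 1 lay within the range of the tdp-1(ok803) libraries. Close collagen copies can share reads, so the level of a single member is uncertain where its sequence is repeated.

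**Figure D3:**
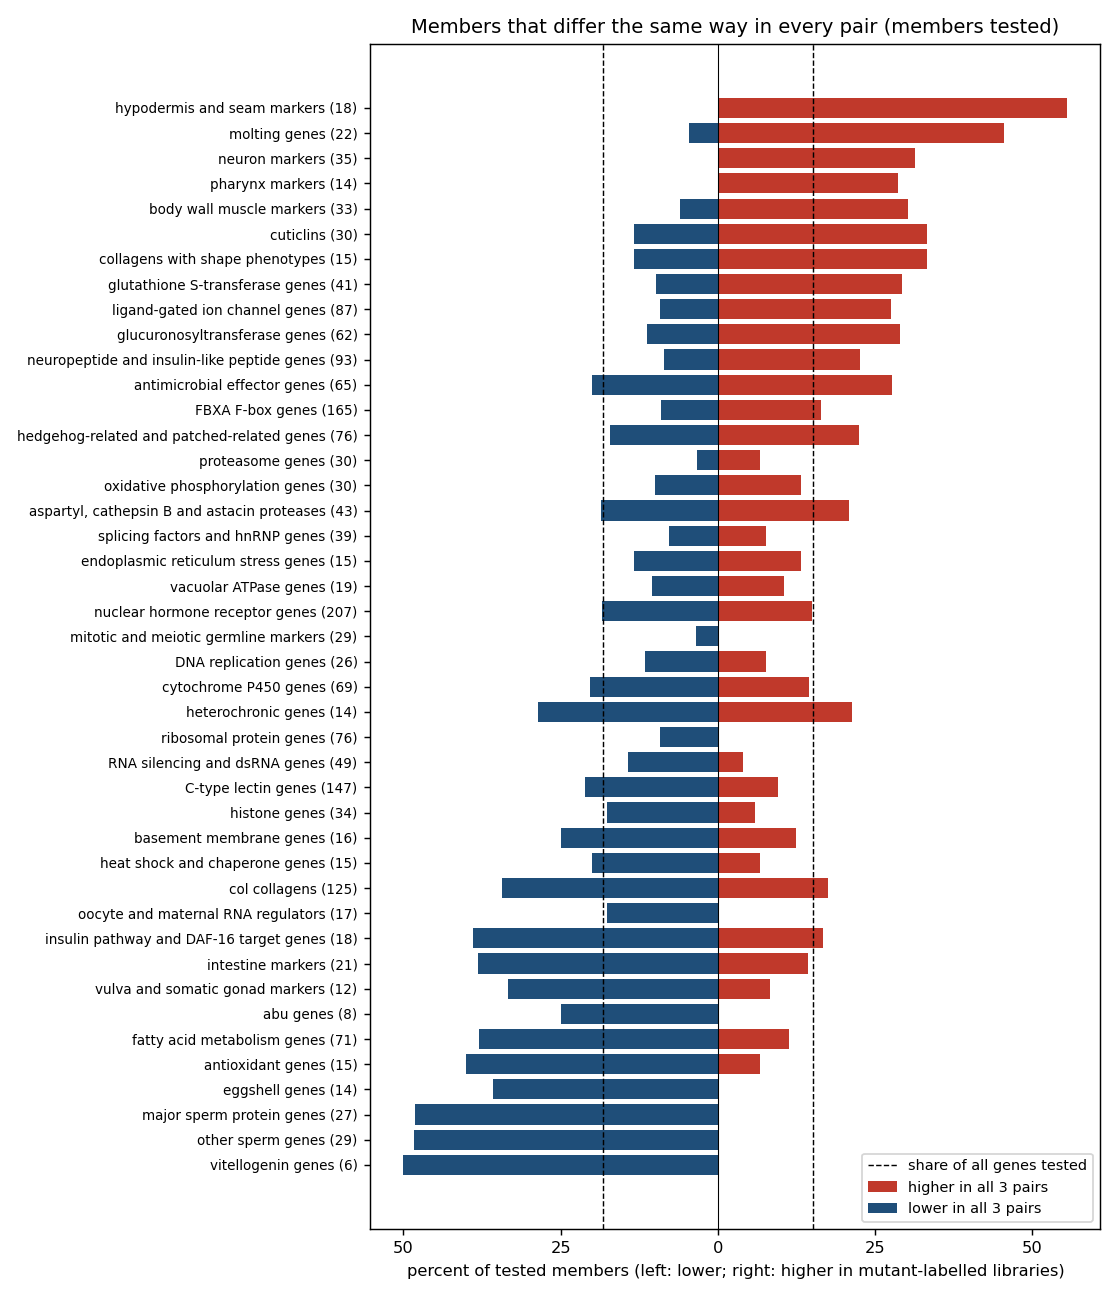
Percent of the tested members of each of 43 gene groups that were higher (red, right) or lower (blue, left) in all 3 pairs, with the number of members tested in parentheses. Dashed lines mark 15.2% and 18.2%, the shares of all genes tested. Hypodermis and seam markers reach 55.6% on the higher side, and vitellogenin genes reach 50% on the lower side.

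Genes of yolk, eggshell, oocytes and sperm had negative medians in pairs 2 and 3, whereas pair 1 differed between groups. The pair 1 median was -0.37 for vitellogenin genes and -0.14 for sperm genes other than the major sperm proteins, but 0.43 for oocyte genes, 0.10 for eggshell genes and 0.04 for major sperm protein genes. DESeq2 over all 3 pairs called 4 vitellogenin genes, 4 eggshell genes and 1 oocyte gene lower. It also called 5 major sperm protein genes and 2 other sperm genes lower. Limma over all 3 pairs called 0 genes of these groups. The 6 vitellogenin genes encode the yolk proteins that the adult intestine exports to oocytes. Their summed normalized counts were 187000, 483000 and 523000 in the wild-type libraries against 88300, 121000 and 149000 in the tdp-1(ok803) libraries, without overlap. Vit-6 was the most abundant, at 130457, 238327 and 274672 against 52206, 61711 and 79172, which did not overlap either (mean difference -1.69). Vit-2 had 37813, 147654 and 154610 against 14585, 35403 and 43173 and differed by -1.37, -2.06 and -1.84 in the 3 pairs. Vit-5 was also lower in all 3 pairs, with a mean of -1.61, whereas vit-1, vit-3 and vit-4 were higher in pair 1, by 0.15, 0.77 and 0.85, and differed by -1.72 to -2.18 in pairs 2 and 3. Over replicates 2 and 3 all 6 vitellogenin genes were called lower. Vit-3, vit-4 and vit-5 are close copies whose reads could be split between them.

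Of 14 eggshell genes, 0 were higher and 5 lower in all 3 pairs, and 8 were called lower over replicates 2 and 3. C44B12.1 (perm-2) and C44B12.5 (perm-4), which encode proteins of the eggshell's inner layers, had the largest of the differences that held in every pair. C44B12.1 had normalized counts of 1404, 6102 and 7565 in wild-type animals against 775, 2196 and 2690 in tdp-1(ok803). C44B12.5 had 2360, 7408 and 9007 against 1332, 2463 and 3231. The chondroitin proteoglycan gene cpg-1 had 2326, 2580 and 3464 against 2480, 548 and 822, a difference of 0.09 in pair 1 and of -2.23 and -2.07 in pairs 2 and 3, and cbd-1, which encodes a chitin-binding protein of the vitelline layer, had 0.97, -1.54 and -1.44. The 17 oocyte and maternal RNA regulators followed the same pattern: their median difference was 0.43 in pair 1, -1.05 in pair 2 and -1.42 in pair 3, all 17 were lower in pairs 2 and 3 and 14 were called lower over these replicates. In all 3 pairs 3 oocyte genes were lower (17.6%), which is near the 18.2% of all genes.

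The major sperm proteins drive the crawling of nematode sperm and are encoded by many close copies. Their summed normalized counts were 23400, 93600 and 125000 in the wild-type libraries against 23000, 50600 and 53000 in the tdp-1(ok803) libraries, so pair 1 was level while pairs 2 and 3 were lower. Of 27 tested members, 13 (48.1%) were lower and 0 higher in all 3 pairs, and 20 were called lower over replicates 2 and 3. Msp-81 had 865, 8833 and 11510 against 350, 3296 and 3364, and msp-36 had 1022, 7854 and 10540 against 494, 2777 and 3983. Replicate 1 was low in both genotypes for both genes, so the groups overlapped. The 29 other sperm genes gave 14 lower (48.3%) and 0 higher, with 5 called lower over replicates 2 and 3, for example spe-15, which encodes a myosin VI, at 2577, 5909 and 6116 against 1842, 3274 and 4046. The 29 markers of the mitotic and meiotic germline had medians of 0.49, -0.48 and -0.41 in pairs 1 to 3, with 21 lower in pairs 2 and 3 and 4 called lower over these replicates. In all 3 pairs 1 germline marker was lower, gld-2, which encodes a cytoplasmic poly(A) polymerase, and 0 were higher.

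Wild-type replicate 1 was far below wild-type replicates 2 and 3 for these same groups. The median difference was -2.17 for vitellogenin genes, -2.16 for major sperm protein genes, -1.74 for oocyte genes, -1.35 for other sperm genes and -1.14 for eggshell genes, and replicate 1 was the lowest wild-type library for 6 of 6, 26 of 27, 17 of 17, 26 of 29 and 13 of 14 members. In tdp-1(ok803) the same difference was -0.20, -1.26, 0.16, -0.98 and -0.00. Yolk and eggshell RNA was thus present in libraries labelled L4 of both genotypes and varied between libraries of a genotype; its part in the differences between genotypes was not tested. The 8 abu genes, which encode repeat-rich proteins of the pharyngeal cuticle, repeated the pattern, with a median of 0.57 in pair 1 and of -1.24 in each of pairs 2 and 3. The members abu-2 and abu-4 were lower in all 3 pairs, and 6 of the 8 were called lower over replicates 2 and 3.

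**Figure D4:**
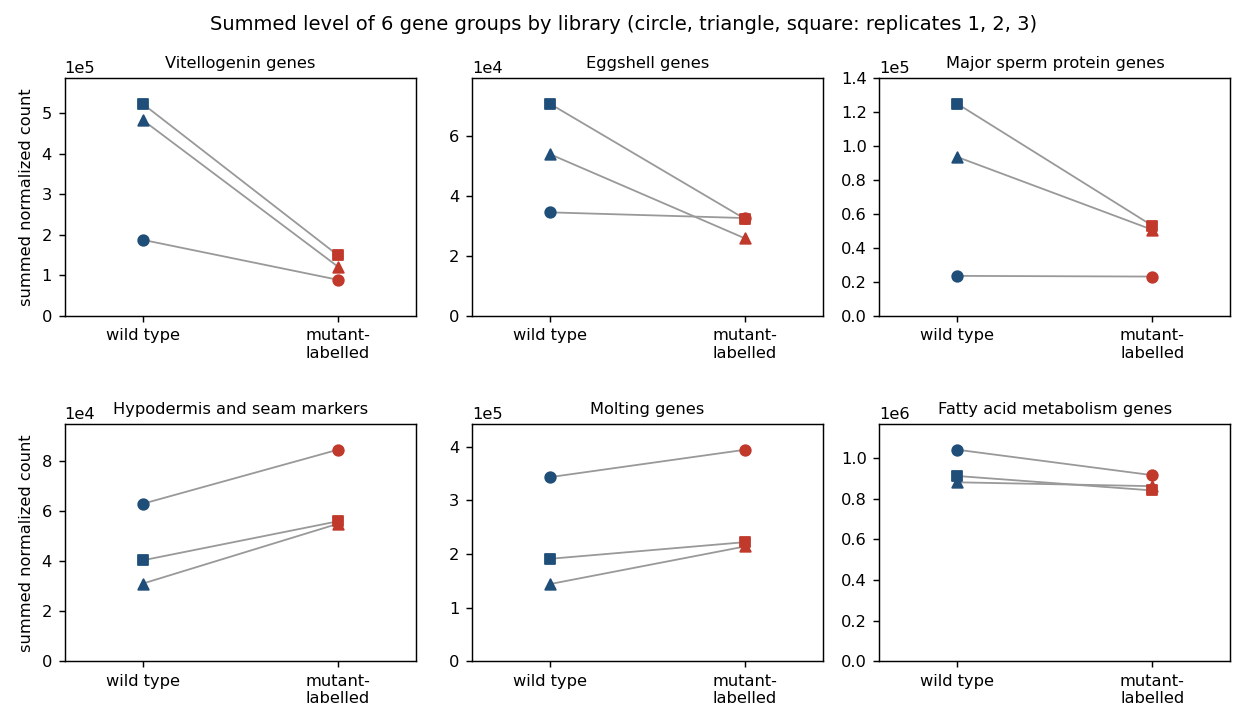
Summed normalized counts of 6 gene groups in each library, wild type on the left and tdp-1(ok803)-labelled on the right of each panel, with lines joining pairs and circles, triangles and squares for replicates 1, 2 and 3. All axes start at 0. The vitellogenin sum is lower at the right end of every line, from 187000 to 88300 in pair 1 and from 483000 to 121000 in pair 2, while the major sperm protein sum is level in pair 1 at 23400 and 23000.

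Neuron markers and body wall muscle markers were higher in all 3 pairs more often than genes at large. Of 35 neuron markers, 11 were higher (31.4%) and 0 lower in all 3 pairs, with medians of -0.06, 0.44 and 0.44 in pairs 1 to 3, and 1 was called higher over replicates 2 and 3. Mec-7, a tubulin of the touch receptor neurons, had normalized counts of 9813, 5438 and 6817 in wild-type animals against 11537, 9895 and 10186 in tdp-1(ok803). The synaptic vesicle genes rab-3 and sng-1 did not overlap either, at 1341, 1273 and 1474 against 1808, 1746 and 1741 and at 359, 345 and 405 against 531, 637 and 509. Wild-type replicate 1 exceeded replicates 2 and 3 by a median of 0.70 for the neuron markers. Of 87 genes of ligand-gated ion channels, which receive acetylcholine, GABA and glutamate, 24 were higher (27.6%) and 8 lower (9.2%), with 1 called higher over replicates 2 and 3. The higher ones included the levamisole receptor subunit lev-1 at 917, 853 and 980 against 1178, 1217 and 1401. Of 93 genes of neuropeptides and insulin-like peptides, 21 were higher (22.6%) and 8 lower (8.6%), and 1 was called higher over replicates 2 and 3. This list includes nlp-34, which is also counted among the antimicrobial effector genes below, so it is not a list of neuronal genes alone. For each group in this paragraph, the 1 gene called higher stands beside 2.09% of all genes called so, and no lean is read from it.

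Of 33 body wall muscle markers, 10 were higher (30.3%) and 2 lower (6.06%) in all 3 pairs. The list as a whole moved little, with a median of 0.07 and medians of 0.12, 0.10 and 0.01 in pairs 1 to 3. In pairs 2 and 3 together 14 were higher and 9 lower. Among those higher in all 3 pairs, unc-97, pat-6 and unc-112 had the largest smallest difference. They encode proteins of the integrin attachment of muscle. For unc-97 the normalized counts were 7165, 9248 and 9791 in the wild-type libraries against 10485, 14409 and 13823 in the tdp-1(ok803) libraries, without overlap, and the mean differences of pat-6 and unc-112 were 0.50 and 0.57. The members lower in all 3 pairs were myo-3, a myosin heavy chain of the thick filament, at -0.43, and unc-60, a cofilin that severs actin filaments, at -0.25. No muscle marker was called over replicates 2 and 3 without the block, and with it 4 were called higher and 1 lower. The 14 pharynx markers gave 4 higher and 0 lower in all 3 pairs, but their median was 0.79 in pair 1 and -0.35 in pair 3, and 3 were called lower over replicates 2 and 3.

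Among detoxification genes, the glutathione S-transferase and glucuronosyltransferase families were higher in all 3 pairs more often than genes at large, and the cytochrome P450 family was not. Of 41 glutathione S-transferase genes, 12 were higher (29.3%) and 4 lower in all 3 pairs, and 2 were called higher over replicates 2 and 3. Besides gst-24, the gene gst-38 had normalized counts of 459, 1134 and 1278 in wild-type animals against 836, 2500 and 2254 in tdp-1(ok803). Of 62 glucuronosyltransferase genes, which couple sugar to foreign compounds, 18 were higher (29%) and 7 lower, with ugt-39 at 250, 124 and 110 against 397, 436 and 320 and no overlap. Their median was -0.09 in pair 1, 0.14 in pair 2 and 0.47 in pair 3, and 3 of these genes were called higher and 0 lower over replicates 2 and 3. The 69 cytochrome P450 genes lay near the shares of all genes, with 10 higher and 14 lower, and 3 called higher and 1 lower over replicates 2 and 3. They held opposite members: cyp-13B1 at 854, 210 and 131 against 1065, 716 and 606, and cyp-37B1 at 9836, 2446 and 2426 against 1861, 1166 and 1223.

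Among 65 antimicrobial effector genes 18 were higher (27.7%) and 13 lower (20%), with 6 called higher and 3 lower over replicates 2 and 3. The higher ones were led by fipr-7, fipr-9 and fipr-5, short secreted peptides of a family related to fungus-induced genes. Fipr-5 had normalized counts of 95, 151 and 137 in wild-type animals against 192, 475 and 324 in tdp-1(ok803), and fipr-9 had 127, 96.2 and 67 against 483, 292 and 251. Neither gene overlapped between groups, though close copies in this family can share reads. In the opposite direction, cnc-4, a caenacin peptide of the epidermis, had 503, 399 and 327 against 69.2, 160 and 135, and nlp-34, a peptide gene of the epidermal defence, had 2171, 1364 and 1277 against 890, 963 and 662. Both were lower in every tdp-1(ok803) library than in any wild-type library. Of the C-type lectin genes, which encode sugar-binding proteins, 14 were higher (9.52%) and 31 lower (21.1%), with 2 called higher and 5 lower over replicates 2 and 3. Of 43 protease genes of the aspartyl, cathepsin B and astacin classes 9 were higher and 8 lower, with 2 and 3 called. The F-box genes of the fbxa class gave 27 higher and 15 lower (9.09%) of 165, with 2 called higher and 0 lower.

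Genes of fat metabolism were lower in all pairs more often than genes at large, 27 of 71 (38%) against 18.2%, with 8 higher, and 2 were called higher and 3 lower over replicates 2 and 3. The differences were small for most, with a median of -0.10 that was -0.02 after quantile scaling. A larger difference was that of acs-2, an acyl-CoA synthetase of mitochondrial fat oxidation that is known to respond to fasting, at 23965, 11103 and 9265 in the wild-type libraries against 6913, 3338 and 4694 in the tdp-1(ok803) libraries. Its groups did not overlap (mean difference -1.50, SE 0.22, limma adjusted p = 0.12). C05D11.7 (atgl-1), the main triglyceride lipase, had 7180, 3444 and 3591 against 5022, 2352 and 2593, and lbp-5, a fatty acid binding protein, had 7103, 7956 and 7062 against 4902, 6064 and 4983. Both were lower by similar amounts in each pair. The acyl-CoA dehydrogenase gene acdh-3 was higher without overlap, at 8895, 11470 and 12522 against 15037, 17168 and 16873.

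Of 18 genes of the insulin pathway and its factor DAF-16, 3 were higher (16.7%) and 7 lower (38.9%) in all 3 pairs, against 15.2% and 18.2% of all genes. In this list 1 gene was called lower over replicates 2 and 3. Daf-16 itself had a mean difference of -0.47, and mtl-1, a metallothionein, had -1.85, -1.11 and -0.20. Dod-17 and dod-24, which belong to the genes repressed by DAF-16, were higher at 0.41 and 0.36, with 0.03 in pair 1 for dod-17. Groups overlapped for each of these named genes, and none passed the limma threshold. Of 15 antioxidant genes, 1 was higher and 6 lower, and 0 were called over replicates 2 and 3 (with the block, 1 higher and 1 lower). Ctl-3, a catalase, had normalized counts of 357, 134 and 264 in wild-type animals against 136, 23.4 and 106 in tdp-1(ok803), and the superoxide dismutase gene sod-3 had 229, 161 and 173 against 134, 148 and 107. The groups overlapped for ctl-3 and not for sod-3. Skn-1, the factor that drives many glutathione genes, was lower in all 3 pairs at -0.32, and its target gcs-1 was higher at 0.15. The antioxidant median of -0.00 was positive under TMM and quantile scaling. Of 21 intestine markers 3 were higher and 8 lower, and 1 was called lower over replicates 2 and 3. Ges-1, the gut esterase, had 8025, 4764 and 5155 against 4678, 3419 and 3424 without overlap, whereas elt-2, the main intestinal GATA factor, had 3340, 3414 and 3535 against 3572, 4229 and 4560.

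Counted over all 3 pairs, genes of RNA handling lay within the shares of all genes or below them, but in pairs 2 and 3 they were mostly lower. Of 39 splicing factor and hnRNP genes, 3 were higher and 3 lower in all 3 pairs, or 7.69% each, and 1 was called lower over replicates 2 and 3. Mbl-1, the muscleblind splicing regulator, was the lower member with the largest smallest difference, at 4296, 3752 and 5159 against 2716, 2828 and 3018 without overlap, and the small nuclear ribonucleoprotein gene snr-7 was higher at 0.42. Of 49 genes of RNA silencing and double-stranded RNA, 2 were higher (4.08%) and 7 lower (14.3%), and 1 was called lower over replicates 2 and 3. In pairs 2 and 3 together, 25 of these 49 were lower and 2 higher, and 21 and 3 of the 39 splicing and hnRNP genes. Over the 15807 genes tested, 5690 were lower and 5097 higher in those pairs. With the block kept over replicates 2 and 3, 15 silencing genes were called lower and 1 higher, beside 8.72% and 7.41% of all genes. T22B3.2 (alg-3), an Argonaute of spermatogenesis, had 2563, 6648 and 7427 against 1977, 3199 and 4104, and sago-1, a secondary Argonaute, had -0.57, -0.20 and -0.18. The genes adr-1 and adr-2 encode worm ADAR proteins, of which ADR-2 carries out A-to-I editing and ADR-1 aids it. They had differences of 0.16, -0.33 and -0.43 and of 0.27, -0.27 and -0.25 in pairs 1 to 3, and did not pass the test (means -0.20 and -0.08). Genes of the ribosome, oxidative phosphorylation, the vacuolar ATPase, the proteasome and the endoplasmic reticulum stress response had medians between -0.13 and -0.01, and these medians turned positive under quantile scaling. In the same order their counts higher and lower in all 3 pairs were 0 and 7 of 76, 4 and 3 of 30, 2 and 2 of 19, 2 and 1 of 30, and 2 and 2 of 15. The 26 DNA replication genes gave 2 higher and 3 lower, and the 34 histone genes, close copies that can share reads, gave 2 and 6. Over replicates 2 and 3, 1 ribosomal protein gene was called lower and 1 histone gene higher among these lists.

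**Figure D5:**
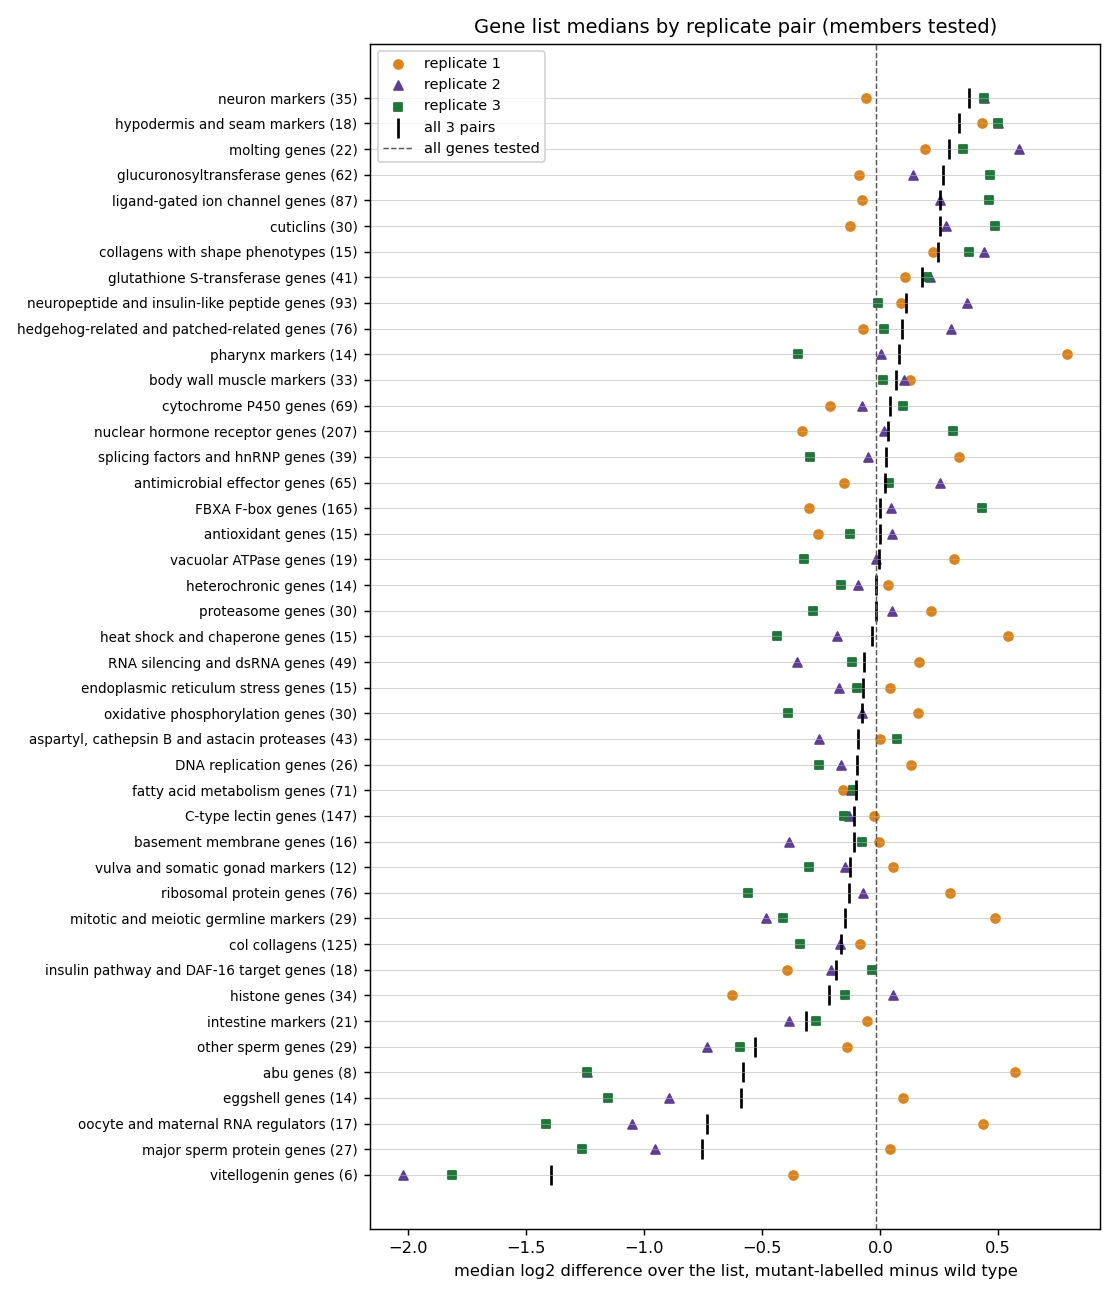
Median log2 difference of each of 43 gene groups in pair 1 (orange circles), pair 2 (purple triangles) and pair 3 (green squares), with a black bar for the median of the mean over pairs, a dashed line for all genes tested at -0.02, and the number of members tested in parentheses. Vitellogenin genes lie lowest at -1.40, and for the oocyte genes pair 1 lies at 0.43 while pairs 2 and 3 lie at -1.05 and -1.42.

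The 3 genes that edgeR called lower were dod-3, K06H6.1 and K06H6.2, and the genes K06H6.1 and K06H6.2, with the neighbours described here, were chosen after their values were seen. K06H6.2 had normalized counts of 126, 666 and 449 in wild-type animals against 7.98, 9.14 and 21.1 in tdp-1(ok803). K06H6.1 had 61.3, 265 and 226 against 0.887, 5.08 and 7.39. Their mean differences, -4.73 and -5.09, had a limma adjusted p of 0.051 each, and every tdp-1(ok803) library was far below every wild-type library, replicate 2 included. These genes are neighbours in the RefSeq annotation of WBcel235, used here for gene order only. Among 15250 tested genes placed in that order, 76 were at least 2-fold lower in each pair, and 14 of them lay in 5 runs of 2 or more neighbours. The longest run held 4 genes, K06H6.4 (gtnt-34), K06H6.2, K06H6.1 and ZK488.6 (gtnt-57), and another, of 3 genes, lay on the adjoining side and held C14C6.3, C14C6.6 (gtnt-7) and C14C6.8 (gtnt-8). K06H6.4 and ZK488.6 were at 11 to 32.7 in wild type and at 0 to 5.08 in tdp-1(ok803). C14C6.6 had 40.1, 124 and 53.6 in the wild-type libraries against 0.887, 0 and 5.28 in the tdp-1(ok803) libraries. From nhr-155 to gtnt-57, 8 of 10 tested genes were lower in all 3 pairs, 1 was higher, the pseudogene C14C6.12 at 61.3, 33.6 and 9.38 against 143, 134 and 53.8, and C14C6.2 was higher in pair 1 and lower in pairs 2 and 3. The nearest tested genes outside, C14C6.5 and ZK488.5 (gtnt-56), differed by 1.24, -1.08 and -1.38 and by -0.60, -0.20 and -0.90 in pairs 1 to 3, so ZK488.5 was also lower in all 3 pairs. On the higher side 41 genes placed in the order met the 2-fold rule, and fipr-5 and fipr-9 formed the single run of neighbours.

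Input RNA of the immunoprecipitation assay gave a further view of the same genotypes, in young adults raised at 15°C, with 1 library per genotype and hence no test. Of 5973 tested genes with an input value of at least 10 in either library, 968 were higher and 4696 (78.6%) lower in the tdp-1(ok803) input, with a median log2 difference of -0.24, so a lower value there is the usual one. The genes higher in all 3 poly(A) pairs gave 15.6% higher and 79.1% lower, and the genes lower in all 3 pairs gave 18.5% and 75.5%. Among the groups, 41 of 41 col collagens with such a value were lower, with a median of -0.84, and 12 of 12 major sperm protein genes, with -1.14. Values of the sperm protein genes can lie at the cut-off of 10, as for msp-78 at 10 against 5, where few counts decide the ratio. The 6 vitellogenin genes were all lower, with a median of -0.42, and the 14 eggshell genes had a median of -0.16. Other groups ran the opposite way: 15 of 25 antimicrobial effector genes were higher, with a median of 0.29, and 9 of 13 protease genes, with a median of 0.48. For tdp-1 itself the input value was 38 for wild type against 12 for tdp-1(ok803), and for adr-1 and adr-2 it was 64 and 52 and 42 and 34.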

How the data were processed

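Poly(A) RNA of whole L4 animals was sequenced from TruSeq libraries, which do not mark strand, so reads of overlapping and antisense genes cannot be told apart. For each gene the authors deposited a normalized count signal, the read count divided by a factor per library, made from quality-trimmed reads mapped to genome release WS220 once those of rRNA had been taken out. The submitters' processing notes list TopHat2 2.0.10, Bowtie2 2.1.0, HTSeq 0.5.4p3 and DESeq 1.16 without their roles. Whole reads were recovered from the smallest step in each library (0.785 to 1.34 normalized counts per read), and 100% of values were whole within 0.01. The input values deposited by the authors were treated as a score: whole-number normalized counts whose scaling is not given in the sources used here and whose depth is unknown. Their genes were matched through RefSeq names, as were 15332 of the tested genes.

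Values of at least 10 in at least 3 libraries were taken as log2(value + 1) and fitted with limma 3.58.1 (mean-variance trend, Benjamini-Hochberg adjustment, threshold 0.05) in R 4.3.3, with genotype and replicate number as terms. The alternatives were edgeR 4.0.16 and DESeq2 1.42.0 on the recovered reads, other scalings, pseudocounts and filters, no block, and each replicate left out; a block of 2 levels and replicates 2 and 3 without the block were added after the values were seen. Python 3.11.15 with pandas 2.3.3, numpy 2.4.6 and matplotlib 3.10.9 was used for lists and plots. The replicate numbers come from the labels, which name no shared batch and do not say whether libraries came from separate cultures, so p-values measure the spread between these libraries. Deviations from the genotype means correlated across genes at 0.657, 0.435 and 0.353 for libraries with the same number, all above 0.1. The numbers were used as pairs. The crossed libraries of replicates 2 and 3 also passed 0.1. Wild-type replicate 2 correlated at 0.38 with tdp-1(ok803) replicate 3, and wild-type replicate 3 at 0.305 with tdp-1(ok803) replicate 2. Since replicate 1 stood apart in both genotypes, this measure sets pair 1 apart. It cannot tell whether replicates 2 and 3 are rightly matched.

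The members, 43 gene lists and tests were chosen with earlier results of these data known. Named genes are tdp-1, adr-1, adr-2, genes past the threshold, the 12 higher and 12 lower genes above the median gene in level (874.2) with the largest smallest difference over pairs, up to 3 members per list and direction by the same measure with a mean of at least 100, and members of lists of at most 15 genes. Simulated data with 200 genes changed 4-fold gave 87.5% recovery and 14 false calls among 15807 genes for limma, 86.5% and 16 for edgeR, and 89.5% and 32 for DESeq2. In this simulation genes were drawn independently and a changed gene changed by the same fold in every pair. These rates therefore do not carry over to smaller differences or to differences that vary between pairs. No sequence is given, since no genome of the build of the files was used here.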

Additional observations from a re-analysis of the deposited data

How the results depend on the processing

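The count of called genes depended on the treatment of replicate 1 and of the pairing. Over all 3 pairs limma called 1 gene higher and 0 lower with the replicate block, 0 and 0 with no replicate block (413 genes at an unadjusted p under 0.05), 1 and 3 with TMM scaling or with edgeR, 143 and 136 with DESeq2, 2 and 7 with quantile scaling, 4 and 12 with a block of 2 levels, and 0 higher with no filter. Leaving out each replicate in turn gave 0 to 1171 genes higher and 0 to 1378 lower, with the highest counts without replicate 1, and replicates 2 and 3 without the block gave 330 and 348. Other pseudocounts, the filter of 50 and median-of-ratios scaling gave 1 and 0. Genes of one direction in every pair numbered 2142 to 2742 higher and 2594 to 3103 lower over scalings, pseudocounts and filters, and 3498 to 5097 and 3915 to 5690 when 2 pairs were left. The difference of adr-2 ran from -0.26 to 0.0133 when 1 replicate was left out, and was positive without replicate 2 (0.0133) and without replicate 3 (0.0009). Why these settings differ was not tested. The median of all genes moved by under 0.1 under every scaling. The smallest values are limited by depth: 1 read is worth 0.785 to 1.34 normalized counts, and the stretch of genes at K06H6 rests on few reads in tdp-1(ok803).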

Other observations

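Some gene groups held members that stood apart from their group. The embryonic small heat shock protein gene sip-1 had normalized counts of 7492, 3916 and 5300 in wild-type animals against 5174, 861 and 1131 in tdp-1(ok803), a difference of -0.53 in pair 1 and of -2.18 and -2.23 in pairs 2 and 3, while hsp-17, another small heat shock gene and the 1 of 15 heat shock and chaperone genes that was higher in all 3 pairs, had 0.61, 0.56 and 0.44. In that list 3 genes were lower in all 3 pairs, and 1 was called lower over replicates 2 and 3. Nuclear hormone receptor genes lay at the shares of all genes, with 31 higher (15%) and 38 lower (18.4%) of 207, and 4 called higher over replicates 2 and 3. Within them nhr-57, known as a target of the hypoxia factor HIF-1, had 395, 276 and 347 against 781, 651 and 684, and nhr-235 had 66.8, 19.1 and 34.8 against 209, 137 and 192. Neither receptor gene overlapped between genotypes.

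Of 16 basement membrane genes, 2 were higher and 4 lower in all 3 pairs, and of 12 markers of the vulva and somatic gonad 1 was higher and 4 lower. The type IV collagen genes emb-9 and let-2 were lower in all 3 pairs, emb-9 by -0.14, -0.53 and -0.82 and let-2 by -0.20, -0.83 and -1.14, with overlapping groups in both. The astacin protease gene nas-37, which is needed to shed the old cuticle, was higher in all 3 pairs, at 8558, 2956 and 3365 against 11494, 6342 and 5914. The heterochronic factor lin-29, which acts in the seam cells at the larva-to-adult switch, had 2437, 1430 and 1780 against 2837, 1969 and 2285. Its differences were 0.22, 0.46 and 0.36. Lin-41, a target of the let-7 microRNA that acts earlier in the same switch, had 0.59, -0.90 and -1.06. It is also 1 of the oocyte and maternal RNA regulators above, whose medians were 0.43, -1.05 and -1.42 in pairs 1 to 3. The tissue its RNA came from cannot be told in whole animals. Of 14 heterochronic genes, which time larval development, 3 were higher and 4 lower in all 3 pairs. Over replicates 2 and 3, 2 were called lower, and lin-41 was 1 of them.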
